A study of Mus musculus with 6 samples.

Results

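The marker genes of resident Kupffer cells described here are Clec4f, Timd4, Vsig4, Cd5l, Marco, Folr2, Adgre1 and Csf1r. They were taken by name from the table of DESeq2-normalized counts, after Ensembl identifiers had been matched to GRCm38 gene symbols, and all 8 were found among its 56305 genes. The table holds polyA RNA-seq of whole liver from 3 WT and 3 Vps15LKO mice, with 1 library per liver. Vps15LKO mice (AlbCre+;Vps15 f/f) lack Vps15, the regulatory subunit of class 3 PI3K, in the liver, and the allele status of the WT controls is not given in the sample labels. All mice were males of 5 weeks, fed ad libitum, and livers were taken at ZT6, that is 6 h after lights on. The Cre is driven by the albumin promoter, a promoter of hepatocytes, so the deletion was not directed at the Kupffer cells. The replicate numbers in the labels were taken as different mice, following the study's methods.

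Kupffer cells are the macrophages that live in the sinusoids of the liver. Most are seeded before birth and renew themselves locally, and they clear bacteria, immune complexes, dying cells and old red blood cells from the portal blood. In mouse liver Clec4f and Timd4 mark the resident cells most strictly. Vsig4, Cd5l, Marco and Folr2 are found on some other tissue macrophages too, and Adgre1 and Csf1r are shared by nearly all macrophages, those derived from blood monocytes included.

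All 8 genes were detected in all 6 livers and reached the filter of 20 normalized counts in each, with between 73 reads (Marco in a WT liver) and 8967 reads (Cd5l in a Vps15LKO liver) behind each value. The livers held abundant hepatocyte transcripts, since 10 markers of these cells summed to 3174511 normalized counts or more in each WT liver and to 1513807 or less in each Vps15LKO liver. The libraries held 16137093 to 18110223 reads on genes, and the DESeq2 size factors were at most 0.801 in WT and at least 1.23 in Vps15LKO libraries. A gene that took the same share of reads in both genotypes is therefore listed lower in Vps15LKO. Pik3r4, which encodes Vps15, ranged from 460 to 573 normalized counts across WT livers and from 341 to 362 across Vps15LKO livers (log2 fold change −0.54, adjusted p = 0.0021, limma). Its log2 fold change was 0.19 with equal read totals per library. For fibroblasts of the floxed line the paper describes deletion of an exon and a truncated Vps15 protein. The counts here cover the whole gene, so they do not measure the deletion.

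The 8 markers did not move together. In Vps15LKO liver 5 of the 8 genes were higher, namely Adgre1, Csf1r, Cd5l, Marco and Vsig4, with ratios of the group means between 1.985 and 2.77. Clec4f, Folr2 and Timd4 did not pass the test, with ratios of 1.34, 1.525 and 0.680, and Timd4 was the single member whose 3 Vps15LKO livers all lay below the 3 WT livers. The genotypes did not overlap for 5 of the 8 (4 higher and 1 lower), beside 73.2% of all tested genes. None of the 8 passed as lower. The test was limma on log2(normalized count + 1) over the 15430 genes that reached 20 normalized counts in 3 or more livers, and a call needed both an adjusted p below 0.05 and a 1.2-fold difference. Fold changes on this scale slightly understate those of low genes. In the same test 66.5% of all genes were called, 33.5% as higher and 33.0% as lower, so a call by itself did not set a marker apart.

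The scaling of the libraries matters for all 8 genes. With equal read totals per library, the median over the 15430 genes moved on the log2 scale from −0.02 to 0.70, and 10300 genes were called higher and 1712 lower, against 5163 and 5099 with the DESeq2 factors. On that scale 7 of the 8 markers were called higher, beside 66.8% of all genes, and 0 of 8 were called lower, beside 11.1% of all genes. Timd4 was the exception, with a log2 fold change of 0.10. Its direction therefore depended on the scaling, whereas the other 7 had positive fold changes under both. In whole liver, fewer cells of a type and less RNA per cell cannot be told apart.

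**Figure D1:**
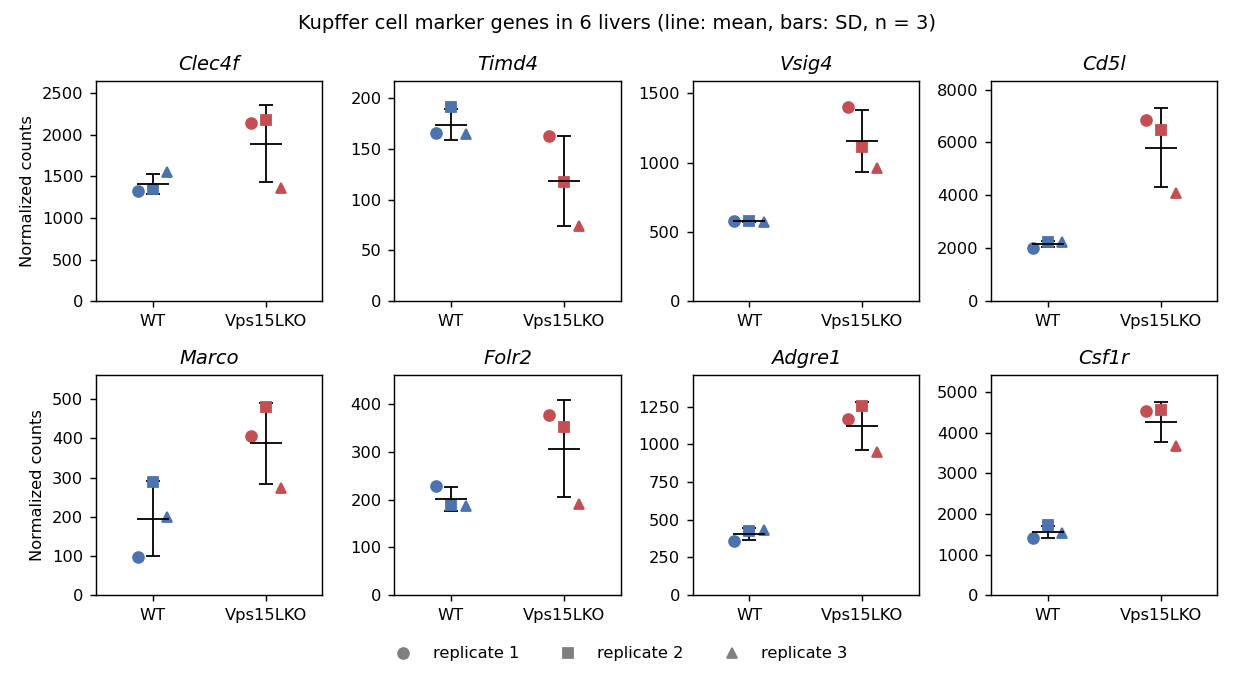
Normalized counts (y axis, linear from 0) of the 8 Kupffer cell markers in 3 WT (blue) and 3 Vps15LKO (red) livers, where marker shapes give the replicate, lines the mean and bars the SD. The groups are apart for Vsig4, Cd5l, Adgre1 and Csf1r (higher) and for Timd4 (lower), they overlap for Clec4f, Marco and Folr2, and replicate 3 is the lowest Vps15LKO liver in each panel.

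The strictest resident markers are Clec4f, a C-type lectin that binds galactose-type glycans, and Timd4, a receptor for phosphatidylserine on dying cells. Clec4f (ENSMUSG00000014542, chr6:83644542-83656187 of GRCm38, minus strand) had 1326, 1354 and 1549 normalized counts in WT and 2138, 2175 and 1361 in Vps15LKO livers. Vps15LKO replicates 1 and 2 lay above all WT livers, and replicate 3 lay among them. Its log2 fold change was 0.40 with a standard error of 0.18 (95% interval −0.01 to 0.80, adjusted p = 0.079, limma). The count-based tests placed Clec4f just past the threshold, with adjusted p = 0.038 by edgeR, 0.041 by limma voom and 0.045 by DESeq2. Without Vps15LKO replicate 3 the limma log2 fold change was 0.62 (adjusted p = 0.0017). The call of Clec4f thus depended on the test, the scaling and this liver.

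Timd4 (ENSMUSG00000055546, chr11:46810800-46844332, plus strand) had 166, 191 and 164.5 normalized counts in WT and 163, 118 and 74.3 in the Vps15LKO livers. All Vps15LKO livers lay below all WT livers, but replicate 1 by less than the SD of the WT values (15.0). The log2 fold change of Timd4 was −0.62 with a standard error of 0.26 (95% interval −1.20 to −0.04, adjusted p = 0.059, limma). Without Vps15LKO replicate 1 it was −0.88 and passed (adjusted p = 0.011), and without Vps15LKO replicate 3 it was −0.32 and did not (adjusted p = 0.15). As CPM, the reads of the gene scaled to a common library total, Timd4 had 7.03, 8.45 and 7.56 in WT and 11.9, 8.02 and 5.82 in Vps15LKO livers, and there the groups overlapped.

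The promoters of these genes are shown because Clec4f and Timd4 are the strictest resident markers and did not pass the test, and Cd5l and Marco, shown further on, are markers that rose. The windows searched were the RefSeq promoters of GRCm38.p6, 300 bases from 250 before to 50 after the start, and those printed are the 250 bases before the start. Clec4f (chr6:83656117-83656366, minus strand) and Timd4 (chr11:46810549-46810798, plus strand) are written 5′ to 3′ along the gene, and capitals mark TGCTGA, the core of the element bound by Maf transcription factors, or its reverse complement TCAGCA.
Clec4f: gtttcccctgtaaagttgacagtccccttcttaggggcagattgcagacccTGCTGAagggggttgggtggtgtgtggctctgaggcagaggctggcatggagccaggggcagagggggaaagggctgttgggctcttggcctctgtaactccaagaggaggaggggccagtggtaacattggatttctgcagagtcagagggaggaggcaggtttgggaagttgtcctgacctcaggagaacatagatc
Timd4: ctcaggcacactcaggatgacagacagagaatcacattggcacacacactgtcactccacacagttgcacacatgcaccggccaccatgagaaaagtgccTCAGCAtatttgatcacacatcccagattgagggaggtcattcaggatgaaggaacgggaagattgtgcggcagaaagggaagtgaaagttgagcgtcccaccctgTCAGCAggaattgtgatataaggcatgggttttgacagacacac
Clec4f held 1 match to this Maf core and Timd4 held 2, both on the opposite strand. Among all 32851 promoters, 19.5% held it on either strand. It was found in 5 of the 6 members with a promoter entry, namely Clec4f, Timd4, Vsig4 (after the start), Cd5l and Folr2. GAGGAAG, a core motif of PU.1, was found in Cd5l and Marco and in 13.6% of all promoters. The E-box CACGTG, the motif of Bmal1 and Clock, was in 0 of the 6 members and in 7.15% of all promoters. A match of such short letters is a description of the window and not a binding site.

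The receptors and secreted factor for the clearance of particles are Vsig4, a receptor for the complement fragments C3b and iC3b, Marco, a scavenger receptor for bacteria and modified lipoproteins, and Cd5l, a secreted protein also called AIM. Vsig4 (ENSMUSG00000044206, chrX:96247203-96293438, minus strand) had 578, 577 and 574 normalized counts in WT and 1404, 1113 and 963 in Vps15LKO livers. The WT livers were nearly equal, and every Vps15LKO liver was far above them. The log2 fold change was 0.99 with a standard error of 0.13 (adjusted p = 0.00023, limma), and it was called under all 19 other fits tried, but a threshold of a fold of 2 on this scale ended the call.

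Cd5l (ENSMUSG00000015854, chr3:87357881-87371073, plus strand) had the highest level per kb of the 8 markers, with 2031, 2246 and 2232 normalized counts in WT and 6848, 6477 and 4094 in Vps15LKO livers. The groups did not overlap, and the lowest Vps15LKO liver was again replicate 3. The log2 fold change was 1.39 with a standard error of 0.19 (adjusted p = 0.00022, limma). It lay between 1.25 and 1.62 when each liver was left out in turn.

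Marco (ENSMUSG00000026390, chr1:120474538-120505024, minus strand) varied most among livers, with 96.8, 289 and 199.5 normalized counts in WT and 407, 480 and 274 in Vps15LKO. The highest WT liver, replicate 2, lay above the lowest Vps15LKO liver, replicate 3. Its log2 fold change was 1.08 with a standard error of 0.37 (95% interval 0.24 to 1.93, adjusted p = 0.029, limma). This call was not stable: without WT replicate 1 the log2 fold change was 0.65 (adjusted p = 0.065), without Vps15LKO replicate 1 it was 1.03 (adjusted p = 0.080) and without Vps15LKO replicate 2 it was 0.91 (adjusted p = 0.081). limma without a trend gave an adjusted p of 0.055.

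The promoters of Cd5l (chr3:87357631-87357880, plus strand) and Marco (chr1:120505025-120505274, minus strand) were the 2 among the members with GAGGAAG, the PU.1 core, which in Cd5l lies on the opposite strand as CTTCCTC. PU.1, encoded by Spi1, is a transcription factor of all macrophages. Capitals mark this motif and, in Cd5l, the Maf core TGCTGA and its reverse complement TCAGCA.
Cd5l: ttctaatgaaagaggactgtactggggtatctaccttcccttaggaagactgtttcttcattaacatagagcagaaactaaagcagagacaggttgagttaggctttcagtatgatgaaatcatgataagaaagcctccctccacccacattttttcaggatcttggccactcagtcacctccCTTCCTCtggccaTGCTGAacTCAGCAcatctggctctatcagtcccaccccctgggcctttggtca
Marco: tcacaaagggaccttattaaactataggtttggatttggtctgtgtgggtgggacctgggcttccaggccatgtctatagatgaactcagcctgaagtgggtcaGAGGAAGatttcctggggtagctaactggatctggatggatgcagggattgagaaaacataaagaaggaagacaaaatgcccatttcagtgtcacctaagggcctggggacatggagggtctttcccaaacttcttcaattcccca
In Cd5l the 3 matches lie close together without overlapping, beginning 67, 54 and 46 bases before the start. In Marco the single match begins 146 bases before the start, and this window held no Maf core.

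Folr2 (ENSMUSG00000032725, chr7:101839988-101857194, minus strand) encodes folate receptor beta of tissue macrophages. It had 229, 189 and 186 normalized counts in WT and 378, 352 and 192 in Vps15LKO livers. As for Clec4f, Vps15LKO replicates 1 and 2 lay above all WT livers and replicate 3 lay among them. The log2 fold change was 0.55 with a standard error of 0.24 (95% interval −0.00 to 1.11, adjusted p = 0.073, limma), and without Vps15LKO replicate 3 it was 0.86 (adjusted p = 0.0013). edgeR (adjusted p = 0.034) and DESeq2 (adjusted p = 0.030) called it. The antisense gene Gm10602 shares 975 bases, or 63.1%, of the Folr2 exons. The library kit marks strand, but whether counting used strand is not given in the sources used here, so the Folr2 counts carry that uncertainty.

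Adgre1 and Csf1r, shared with other macrophages, had ratios of the group means of 2.77 and 2.74, close to the 2.68 of Cd5l. Adgre1 encodes F4/80, the adhesion receptor by which mouse macrophages are commonly stained. Adgre1 (ENSMUSG00000004730, chr17:57358691-57483527, plus strand) had 361, 426 and 430.0 normalized counts in WT and 1167, 1254 and 947 in Vps15LKO livers. The lowest Vps15LKO liver was far above the highest WT liver. The log2 fold change was 1.46 with a standard error of 0.13 (adjusted p = 2.2e-05, limma).

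Csf1r, the receptor for the macrophage growth factors Csf1 and Il34 (ENSMUSG00000024621, chr18:61100598-61132149, plus strand), had 1416, 1723 and 1531 normalized counts in WT and 4551, 4563 and 3686 in Vps15LKO livers. The groups were again far apart. The log2 fold change was 1.45 with a standard error of 0.12 (adjusted p = 1.7e-05, limma). Hmgxb3 on the opposite strand shares 873 bases (15.1%) of its exons. Both ligands were higher as well. Csf1 had 285, 309 and 434 normalized counts in WT and 868, 889 and 818 in Vps15LKO livers (log2 fold change 1.35, adjusted p = 8.9e-05, limma). Il34 had 62.3, 65.0 and 32.4 in WT and 105, 88.3 and 94.8 in Vps15LKO livers (log2 fold change 0.90, adjusted p = 0.016, limma).

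**Figure D2:**
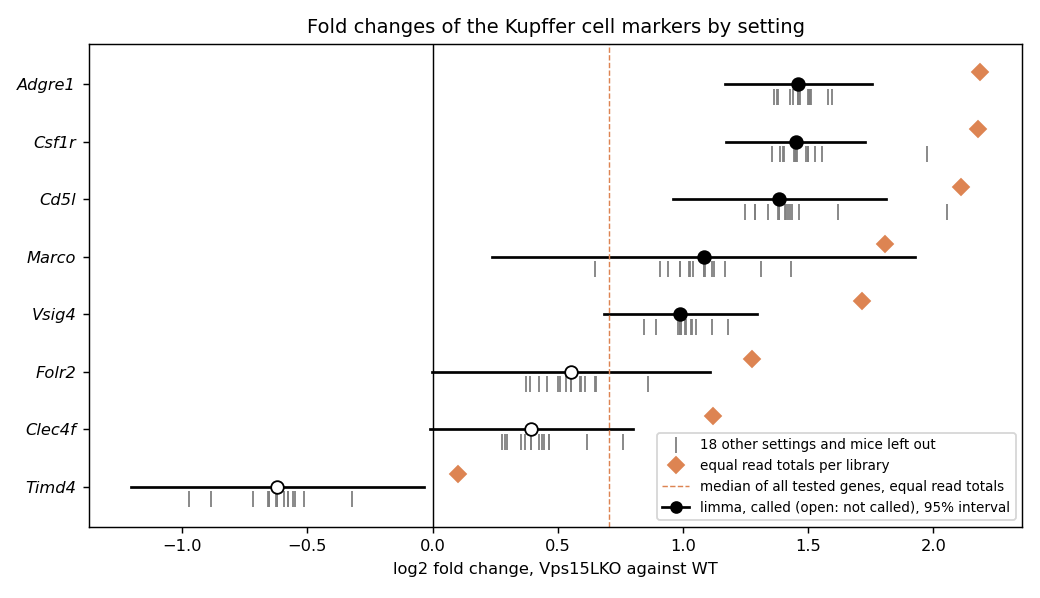
Log2 fold changes (x axis) of the 8 markers in Vps15LKO against WT livers, with the limma value and its 95% interval in black (filled, called; open, not called), 18 other fits as grey ticks, and the fit with equal read totals per library as orange diamonds. The dashed line is the median of all tested genes in that last fit (0.70), and Timd4 lies to the left of it and of every other member in both scalings.

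Per kilobase of exon, the order of the markers in WT livers was Cd5l (1066 normalized counts per kb), Clec4f (571), Vsig4 (389), Csf1r (270), Folr2 (130), Adgre1 (125), Marco (101) and Timd4 (80.0). Folr2, Adgre1 and Marco overlapped among the 3 WT livers, as did Marco and Timd4, while the first 4 did not overlap with their neighbours. In Vps15LKO livers Cd5l was still first with 2852, between 2011 and 3363. Vsig4 (782), Clec4f (765) and Csf1r (739) then overlapped with each other. Adgre1 (347) stood above Marco (201.1) and Folr2 (199), which overlapped, and Timd4 (54.4) was last in both genotypes. Clec4f thus stood above Csf1r per kb in every WT liver and overlapped with it in the Vps15LKO livers.

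A difference between genes within 1 library does not depend on the scaling, so each of the other 6 markers was set against the mean of Adgre1 and Csf1r in the same liver, on the log2 scale. Csf1r and Adgre1 themselves kept their distance, with a Vps15LKO minus WT difference of −0.01 between them (standard error 0.06). Relative to them Timd4 was lower in Vps15LKO livers by 4.22-fold and Clec4f by 2.09-fold. Timd4 stood at −2.10, −2.16 and −2.30 in WT and at −3.82, −4.34 and −4.63 in Vps15LKO livers, a change of −2.08 with a standard error of 0.25. Clec4f stood at 0.89, 0.66 and 0.93 in WT and at −0.11, −0.14 and −0.46 in Vps15LKO livers, a change of −1.06 with a standard error of 0.14. These differences are not corrected for gene length, which sets their level but not their change.

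Folr2 changed by −0.90 (standard error 0.27) and Vsig4 by −0.47 (0.14) relative to Adgre1 and Csf1r, also with no overlap between the genotypes. For Cd5l the change was −0.07 (0.13) and for Marco −0.37 (0.40), and there the genotypes overlapped. For Timd4, Clec4f, Folr2 and Vsig4 the two-sided exact permutation test gave p = 0.1, the smallest that 3 livers against 3 allow. It gave p = 0.8 for Cd5l and 0.5 for Marco by the same exact test. These are 6 comparisons that share their reference, and an exact test of this size cannot reach 0.05. When each liver was left out in turn, the change of Timd4 stayed between −2.30 and −1.89 and that of Clec4f between −1.14 and −0.95. The change of Marco moved from −0.73 without WT replicate 1 to −0.08 without WT replicate 2.

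**Figure D3:**
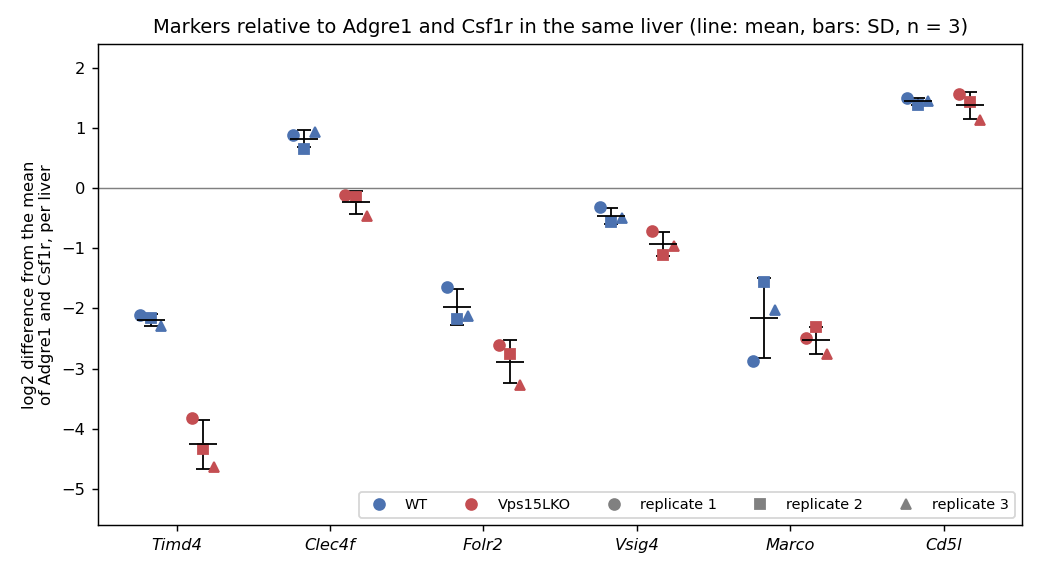
Log2 difference of 6 markers from the mean of Adgre1 and Csf1r in the same liver (y axis), for 3 WT (blue) and 3 Vps15LKO (red) livers, where marker shapes give the replicate, lines the mean and bars the SD. Timd4, Clec4f, Folr2 and Vsig4 lie lower in all 3 Vps15LKO livers than in any WT liver, with changes of −2.08, −1.06, −0.90 and −0.47, while Cd5l and Marco overlap.

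One library touched every member. Within the Vps15LKO group, replicate 3 had the lowest value of all 8 markers, in normalized counts and also in CPM, whereas 41.2% of all tested genes were lowest in this liver in normalized counts and 21.7% in CPM. All 10 hepatocyte markers and 14 of 16 other Kupffer genes were lowest there too, but 2 of 18 genes of recruited macrophages and monocytes were. Clec4f had 1361 normalized counts there, against 2138 and 2175 in the other Vps15LKO livers, and Cd5l had 4094 against 6848 and 6477. What set this liver apart was not tested.

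Over the 6 livers, the markers differed in how closely they followed each other. Adgre1 and Csf1r had a Pearson correlation of 0.996, and Vsig4 and Cd5l one of 0.983. Clec4f followed Folr2 most closely (0.909), and Timd4 lay between −0.57 with Adgre1 and 0.04 with Folr2. These 6 livers form 2 genotypes and share their scaling, so the values describe the livers and carry no test. Outside the 8 members, the genes most like Clec4f were Gm37486 (0.997), Adgre4 (0.993), a relative of Adgre1, and 2310057M21Rik (0.987). Those most like Adgre1 were Cd86 (0.9995), a co-stimulatory ligand, Samhd1 (0.999), a nucleotide hydrolase, and Sdc3 (0.998), a syndecan of Kupffer cells. Adgre4 had 129, 127 and 149.6 normalized counts in WT and 239, 257 and 139 in Vps15LKO livers, with replicate 3 among the WT values as for Clec4f.

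Other genes known from Kupffer cells were split as well. Of 16 genes, 9 were higher, 4 lower and 3 not called, with a median log2 fold change of 0.93. With equal read totals 11 were higher and 2 lower, beside 66.8% higher and 11.1% lower of all tested genes, so the count higher was near that share. Spic, the transcription factor of iron-recycling macrophages, had 30.5, 37.5 and 32.4 normalized counts in WT and 189, 153 and 133 in Vps15LKO livers (log2 fold change 2.20, adjusted p = 1.8e-05, limma). Sdc3, with the highest normalized count of the list, had a log2 fold change of 1.27, and Id3, a regulator needed for Kupffer cell development, one of 0.69 (adjusted p = 0.0041, limma). In these whole livers Nr1h3, which encodes LXRα and supports Kupffer cell identity but is also expressed by hepatocytes, fell by 0.75 on the log2 scale (adjusted p = 0.0010, limma), and had a log2 fold change of −0.02 with equal read totals. C6, a complement component that hepatocytes also make, had the largest fall of the list, from a mean of 4127 ± 1623 to 441 ± 233 (SD, n = 3; log2 fold change −3.29).

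Cd163, the scavenger receptor for haemoglobin bound to haptoglobin, fell outside the rule for naming genes and was chosen after its values were seen. It had 245, 265 and 232 normalized counts in WT and 27.5, 35.7 and 25.5 in Vps15LKO livers. The Vps15LKO values were all far below the WT values, with a log2 fold change of −3.04 (adjusted p = 2.5e-06, limma) and of −2.32 with equal read totals per library, so that Cd163 was lower under both scalings. Fcna, the lectin ficolin A, was chosen likewise and had a WT mean of 807 ± 98.9 and a Vps15LKO mean of 438.5 ± 170 (SD, n = 3; log2 fold change −0.96, adjusted p = 0.014, limma), but −0.23 with equal read totals, where it was not called.

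Genes of macrophages in general had larger fold changes than most of the 8 markers. Of 20 shared macrophage genes, 18 were higher and 1 was lower, with a median log2 fold change of 2.23, beside 1.04 for the 8 markers and −0.02 for all tested genes. With equal read totals 19 were higher and 0 lower, beside 66.8% and 11.1% of all tested genes. Mpeg1, which encodes the pore-forming protein perforin-2, had the highest mean count of them, with 1354, 1810 and 1650.0 normalized counts in WT and 7378, 7045 and 6563 in Vps15LKO livers. Cd14, the co-receptor for lipopolysaccharide, rose most (log2 fold change 4.87, adjusted p = 4.1e-07, limma). Summed over the 20 genes, WT livers had between 11976 and 14553 normalized counts and Vps15LKO livers between 50014.5 and 52303. Set against the mean log2 level of these 20 genes in the same liver, the 8 markers had Vps15LKO minus WT differences between −2.77 (Timd4) and −0.69 (Adgre1). The genotypes did not overlap for 7 of them (exact permutation p = 0.1, the smallest possible) and overlapped for Marco (p = 0.2, the same exact test). The 20 genes rose more on average than each of the 8, so the direction follows from this reference.

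Markers of recruited macrophages and monocytes were mostly scarce in WT livers. Of the 18 genes, 9 stayed under 20 normalized counts in at least 1 WT liver and passed the filter through the Vps15LKO livers, so their direction was set by the filter and is no result. The other 9 reached 20 in every WT liver, and all 9 were higher. The sum over the 18 genes was 1511 to 2538 normalized counts across WT livers and 24664.5 to 36564 across Vps15LKO livers. Spp1 alone had 13401, 10402 and 20496 in Vps15LKO replicates 1, 2 and 3, so the sum largely follows that gene. Gpnmb, a glycoprotein of lipid-laden and scar-associated macrophages, had 2.65, 19.99 and 9.44 normalized counts in WT and 4668, 3362 and 5362 in Vps15LKO livers, and was one of the genes that passed through the latter. Spp1, the secreted protein osteopontin, went from a WT mean of 551 ± 53.4 to a Vps15LKO mean of 14767 ± 5184 (SD, n = 3). The liver with the lowest Kupffer markers, Vps15LKO replicate 3, had the highest Gpnmb and Spp1, but the list did not move as 1. Lowest in that liver were 2 of the 18 genes. These were Mmp12 (1730, 1972 and 1075 in Vps15LKO replicates 1, 2 and 3) and Lgals3 (2052, 2062 and 1958). None of the 18 genes was at 0 in all WT livers. The part of such cells in the values of Adgre1, Csf1r and the other markers was not tested.

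Other cell types that the tissue holds were checked in the same way, by the sums over their whole lists, since most of these genes passed the filter through the Vps15LKO livers. In normalized counts, the 8 dendritic cell markers summed to 166 to 202 in WT and 425 to 454 in Vps15LKO livers. Of these, 2 reached 20 in every WT liver, and both were higher, Zbtb46 with a log2 fold change of 0.55. The 10 lymphocyte markers summed to 159 to 195.5 in WT and 378 to 437 in Vps15LKO livers. Of these, 2 reached 20 in every WT liver and 1 of them was higher, which was Cd4 (1.76). The 8 neutrophil markers summed to 19.99 to 25.6 in WT and 228 to 322.5 in Vps15LKO livers. No neutrophil marker reached 20 in any WT liver among the 4 that were tested, so no count of calls is given, and 2 of the 8, Mpo among them, were at 0 in all WT livers. The part of these cells in the values of the 8 markers was not tested.

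Of the 10 stellate cell and fibroblast markers all were higher, with a median log2 fold change of 1.31 and 4.39 for Col1a1 and 3.58 for Col3a1, the chains of fibrillar collagen (summed 6977 to 7468 in WT and 26911 to 31228 in Vps15LKO). Sinusoidal endothelium, which lines the space where Kupffer cells sit, had 4 higher and 8 lower genes of 12 with the DESeq2 factors. With equal read totals 7 were higher and 2 lower, beside 66.8% and 11.1% of all tested genes. Ehd3 (log2 fold change −1.19) and Dnase1l3 (−1.13) were lower under both, and Lyve1 (0.95) was higher under both. Of 6 erythroid genes that reached 20 in both genotypes 1 was higher and 1 was lower, with 0.83 for Epor, −3.06 for Alas2, the haem synthesis enzyme of red cell precursors, and 0.16 for Hba-a1. With equal read totals 5 of the 6 erythroid genes were higher and 1 lower, again beside 66.8% and 11.1% of all tested genes. There Hba-a1 had 0.88 and was called. Of 10 hepatocyte markers 8 were lower, with −3.07 for Serpina1a, and Alb (−1.48) was not called although its groups were apart. Hba-a1 and Serpina1a belong to families of near-identical copies, so their counts are uncertain.

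Among the signals of the Kupffer cell niche, 13 of 14 genes reached 20 normalized counts in livers of both genotypes, and of these 6 were higher and 1 was lower, with a median log2 fold change of 0.41. With equal read totals 12 of the 13 were higher and 0 lower, beside 66.8% and 11.1% of all tested genes. Their median was then 1.13, beside 0.70 for all tested genes. Ccl2, the chemokine that draws monocytes, was the other gene and passed the filter through the Vps15LKO livers, so only its levels are given. It had 17.2, 12.5 and 16.2 normalized counts in WT and 2448, 1756 and 2253 in Vps15LKO livers. Bmp10, a ligand from stellate cells that sustains Kupffer cells, was the gene that fell, from 146, 144 and 163 to 90.9, 88.3 and 64.4 (log2 fold change −0.90, adjusted p = 0.0015, limma), and it had −0.18 with equal read totals, where it was not called. Eng, the endothelial co-receptor for such ligands and the gene of the list with the highest count, had a log2 fold change of 0.04 and did not pass the test, but had 0.76 and was called higher with equal read totals.

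Of the genes around the Csf1 receptor, 13 of 14 passed the filter, each with at least 20 in every WT liver, and all 13 were higher, with a median log2 fold change of 1.92. Csf2ra, a chain of the receptor for GM-CSF, rose most (log2 fold change 2.54, adjusted p = 2.3e-06, limma), and the adaptor Grb2, expressed in most cells, rose least (0.34, adjusted p = 0.036, limma). Some of these genes, Spi1 and Tyrobp among them, are also on the list of shared macrophage genes, so the counts are not independent.

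Genes that work beside the clearance receptors were mostly higher. Of 15 genes for the uptake of dying cells and modified proteins that reached 20 in both genotypes, 12 were higher and 1 was lower. Their median log2 fold change was 1.04. With equal read totals 14 were higher and 0 lower, beside 66.8% and 11.1% of all tested genes. Mfge8, a bridging protein that binds phosphatidylserine as Timd4 does, had 255, 205 and 216 normalized counts in WT and 3055, 2622 and 3157 in Vps15LKO livers (log2 fold change 3.71, adjusted p = 2.3e-07, limma). Lrp1, an endocytic receptor of hepatocytes and macrophages and the gene of the list with the highest count, fell by 0.81 on the log2 scale (adjusted p = 0.0018, limma) and had −0.09 with equal read totals, where it was not called. Of 8 complement ligands and receptors that reached 20 in every WT liver 3 were higher and 2 lower. C3, the source of the fragments that Vsig4 binds, had 197187, 231852 and 187876 normalized counts in WT and 143169, 163333 and 106784 in Vps15LKO livers, and did not pass the test (log2 fold change −0.59, adjusted p = 0.25, limma). With equal read totals its log2 fold change was 0.13, and in CPM the genotypes overlapped. Itgax, a chain of complement receptor 4 that is also on the list of recruited cells, likewise passed the filter through the Vps15LKO livers, with means of 18.7 in WT and 366 in Vps15LKO.

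**Figure D4:**
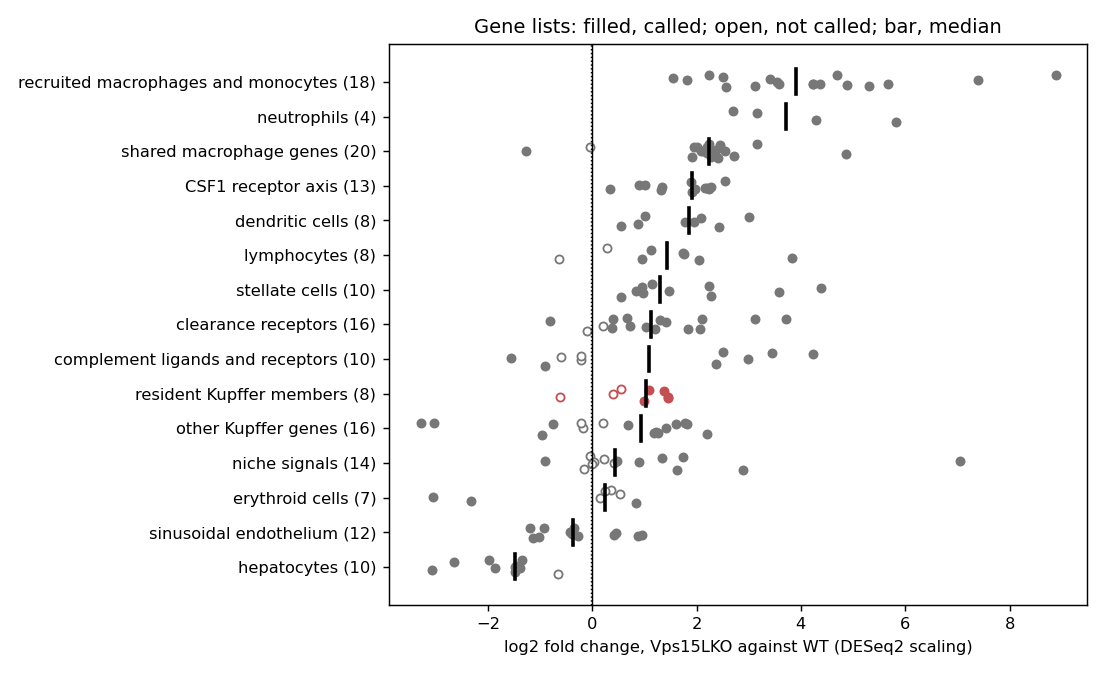
Log2 fold changes in Vps15LKO against WT livers (x axis, DESeq2 scaling) of the tested genes of each list (y axis, number of genes in parentheses), where filled points were called, open points were not, and bars are the medians. Points of genes scarce in WT livers, most of those for neutrophils, dendritic cells and lymphocytes and 9 of the 18 for recruited cells, passed the filter through the Vps15LKO livers. The 8 markers (red, median 1.04) lie between the list of other Kupffer genes (0.93) and the shared macrophage genes (2.23), and the dotted line marks the median of all tested genes (−0.02).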

How the data were processed

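Liver RNA of 3 WT and 3 Vps15LKO mice was sequenced. The authors cleaned the reads (SOAPnuke), aligned them to GRCm38 (HISAT2), assigned them to genes (featureCounts) and scaled each library (DESeq2). Versions, strand and multi-mapping settings are not given in the sources used here. The deposited signal is thus a read count over the library's size factor. Every value (100%) was a whole multiple of what 1 read is worth, within 0.1 read, so reads were recovered (16137093 to 18110223 per library). All columns were used.

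The 15430 genes that reached 20 normalized counts in 3 or more livers were tested on log2(normalized count + 1) with limma 3.58.1 (R 4.3.3, lmFit and eBayes, trend on), with Benjamini-Hochberg adjustment over all of them. The fit had first been run on simulated data with few changed genes and known size factors. Those data could not test the scaling or a change in most genes. The filter follows the one the authors describe. Differences within a liver were compared with a two-sided exact permutation test (scipy 1.17.1). Gene models came from GENCODE M21, and promoters and motif windows from RefSeq (GRCm38.p6). Promoters of 6 members outside chromosome 18 were used.

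The 8 members, the 14 other lists and the motifs were chosen with earlier results of these data known. Named genes were the members, and from each list the largest called rise and fall and the gene with the highest mean, with Csf1, Il34, C3, Id3, Nr1h3, Spic and Pik3r4 always, and the 3 genes most correlated with Clec4f and Adgre1. Some genes that this rule names are not reported here. Alternatives were pseudocounts of 0.1 and 10, other filters, scalings (TMM, upper quartile, quantile, total reads) and thresholds, limma without a trend, count tests on the recovered reads (limma voom, edgeR 4.0.16, DESeq2 1.42.0), replicate number as a block, and each liver left out. The p-values of limma rest on the spread between 3 livers per group, drawn toward a trend over all tested genes. They do not measure the spread of each gene alone. C3 and Alb, whose groups were apart in normalized counts but which were not called, are read with this limit.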

Additional observations from a re-analysis of the deposited data

How the results depend on the processing

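Adgre1, Csf1r, Cd5l and Vsig4 were called higher in all 19 other fits, Marco in 15, Clec4f in 6 and Folr2 in 5, and Timd4 was called lower in 4. Timd4 changed direction with equal read totals per library (log2 fold change 0.10), a scaling that by construction moved the median of all genes by 0.72. The number of markers called lower was 1 in place of 0, each time Timd4, with upper-quartile scaling, quantile normalization and the replicate block, and 0 to 1 when each liver was left out in turn. Of all genes, 10262 were called, 10205 by edgeR on the recovered reads, and 5185 with a fold of at least 2, which is a stricter threshold by construction. That threshold left 4 markers called and ended the call of Vsig4 (0.99).

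The replicate numbers did not pair the samples: the correlations of same-numbered livers were −0.01, −0.01 and 0.05. With the replicate block Timd4 (adjusted p = 0.037) and Folr2 (adjusted p = 0.028) passed in limma, and 10048 genes were called.

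With the shared macrophage list as the reference within a liver, the changes were −1.75 for Clec4f, −2.77 for Timd4, −1.16 for Vsig4, −0.76 for Cd5l, −1.06 for Marco and −1.59 for Folr2. This reference rose more than Adgre1 and Csf1r. Relative to Adgre1 and Csf1r, Cd5l lay between −0.167 and 0.053 when each liver was left out in turn, positive without Vps15LKO replicate 3. With 3 livers a group, the interval of Clec4f (−0.01 to 0.80) includes both no change and a rise, so a smaller effect was not resolved.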
